A study of Mus musculus with 2 samples.

Results

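Mir205 and Mir203 are the miRNA genes of stratifying epithelium, the layered epithelium that forms skin and lines the mouth. Their rows were found by gene symbol in both gene tables, 2 of the 1973 listed miRNA genes, and both were detected. The study sequenced small RNA under 30 bases from B6NCrl mouse embryos aged 12.5 days, using the tissue of the embryonic facial prominence. The facial prominences are buds of neural crest mesenchyme under a sheet of surface ectoderm, from which the face and jaws form. The 2 libraries are biological replicates of 1 group, healthy tissue of mixed sex, with no treatment and no mutant allele named. Replicate 1 came from a pool of 120 embryos and replicate 2 from a pool of 88 embryos. There is no second condition, so the comparisons are of gene against gene within a library and of library against library.

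A miRNA is cut from a hairpin transcript and guides repression of mRNAs that pair with its seed, the bases 2 to 8 from its 5′ end. In mouse skin, miR-203 is known to limit the proliferative potential of progenitors and to promote their differentiation, with the mRNA of the transcription factor p63 as a known target. miR-205 is known in mouse skin for the expansion of stem cells, and in mammalian cell lines it acts with the miR-200 family to repress the Zeb factors and keep cells epithelial.

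The annotated sequences are shown because the tables count reads per hairpin, so each gene's count joins whatever came from both arms. In the hairpins the mature arms are in capitals, and in the mature strands the seed is in capitals. The sequences are from RefSeq on GRCm38.p6, 5′ to 3′, and both genes matched its miRNA table by symbol.
Mir205 hairpin: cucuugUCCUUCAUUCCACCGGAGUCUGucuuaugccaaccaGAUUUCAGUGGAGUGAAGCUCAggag
miR-205-5p: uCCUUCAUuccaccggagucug
miR-205-3p: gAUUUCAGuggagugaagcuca
Mir203 hairpin: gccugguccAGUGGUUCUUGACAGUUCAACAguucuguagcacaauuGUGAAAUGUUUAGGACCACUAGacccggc
miR-203-5p: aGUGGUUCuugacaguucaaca
miR-203-3p: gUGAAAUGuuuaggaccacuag

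Both hairpins carry mature strands of 22 bases on each arm, separated by a loop of 14 bases in Mir205 and of 16 bases in Mir203. The 4 seeds differ from each other, so the 2 genes form no seed family. Among the 1738 mature mouse miRNAs in the RefSeq table, 0 from another gene had the seed of any of the 4 strands, and 0 matched bases 2 to 7. Neither hairpin shared a stretch of 20 bases with another listed miRNA gene. The tables credit no gene with a read that maps to more than 1 place, and for these 2 genes no listed copy would draw reads into that class.

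Mir205 (ENSMUSG00000065533.1) lies at chr1:193507463-193507530 on the minus strand of mm10, the build of the tables. All 68 bases fall in the last of the 2 exons of the long noncoding gene 4631405K08Rik, on the same strand. The nearest protein-coding genes are Camk1g, 137165 bases away, and Plxna2, 1110688 bases away, and 0 other listed miRNA genes lie within 100 kb. Mir203 (ENSMUSG00000065574.1) lies at chr12:112130880-112130955 on the plus strand, with no annotated host gene. It sits between Aspg, which ends 3321 bases before it, and Kif26a, which starts 15253 bases after it. Its 1 listed miRNA neighbour within 100 kb, Mir3073a in the span of Aspg, had 4 counts in replicate 1 and 6 in replicate 2, under the detection minimum of 10 counts. The level of Mir3073a was thus far under that of Mir203.

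The seed of miR-203-3p pairs with the letters CATTTCA and that of miR-205-5p with ATGAAGG, searched on the transcript's own strand in the longest 3′ untranslated region of each mouse gene. Trp63, the mouse gene of p63, held 1 such match for miR-203-3p at chr16:25891531-25891553 on the plus strand. Inppl1, a phosphoinositide phosphatase known as a miR-205 target in human keratinocytes, held 1 match for miR-205-5p at chr7:101822901-101822923 on the minus strand. Zeb2, which encodes a Zeb factor, was searched in the same way for miR-205-5p and held no match to ATGAAGG. Other kinds of site and other Zeb genes were not searched, so Zeb2 may hold a site of another kind. The matched bases are in capitals, from GENCODE M21 transcripts.
Trp63 site: aggggactctgtggCATTTCAgc
Inppl1 site: ccatccgtccggaaATGAAGGaa
Such letters are common. CATTTCA occurred in 16.1% and ATGAAGG in 11.1% of 21037 genes with a 3′ untranslated region. The mRNAs were not measured here, so these are descriptions of sequence only.

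The depth was 4719337 own-strand gene counts in replicate 1 and 5929220 in replicate 2, which were 41.3% and 46.3% of all reads. Unmapped reads made up 25.7% and 19.4% of replicates 1 and 2, and reads with several mapping places 26.0% and 27.9%. A gene counted as detected when each library held 10 counts of it or more, which 395 genes met. CPM is a gene's own-strand count per 1000000 own-strand gene counts of its library.

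Mir205 was among the abundant miRNA genes of the facial prominence. It had 39644 counts in replicate 1 and 55529 counts in replicate 2. These are 8400 CPM in replicate 1 (exact Clopper-Pearson 95% interval 8318 to 8483) and 9365 CPM in replicate 2 (9288 to 9443). The intervals, which cover counting error only, do not meet, so the spread between the libraries was wider than counting error. The mean was 8883 ± 682 CPM (SD, n = 2), rank 28 of all genes, with rank 30 in replicate 1 and rank 26 in replicate 2.

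Mir203 stood somewhat lower in both libraries. It had 26830 counts, or 5685 CPM (5617 to 5753), in replicate 1 and 38270 counts, or 6454 CPM (6390 to 6519), in replicate 2. Its mean was 6070 ± 544 CPM (SD, n = 2), rank 44, with rank 47 in replicate 1 and rank 41 in replicate 2. The coefficient of variation was 7.68% for Mir205 and 8.96% for Mir203, against a median of 11.2% over the detected genes. The median detected gene stood at 122 CPM, so Mir205 was 72.7 times and Mir203 49.7 times that level.

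**Figure D1:**
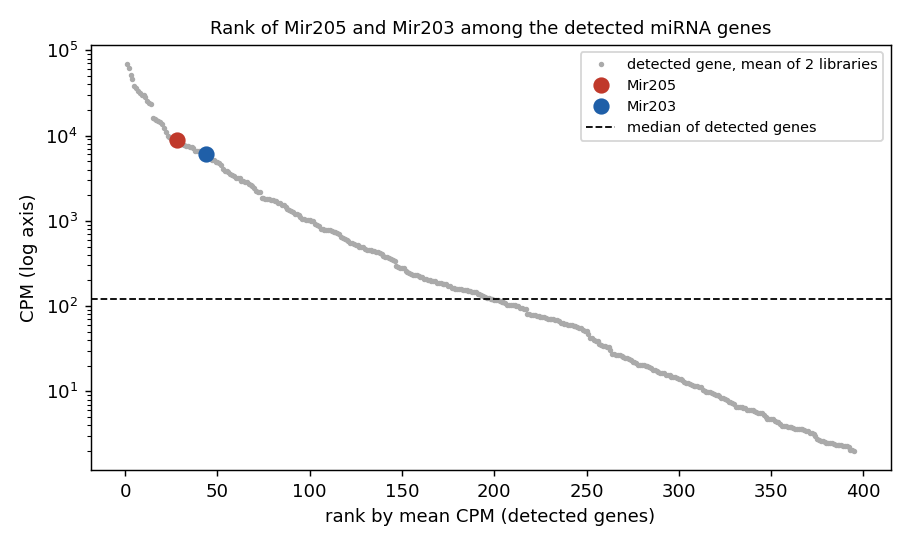
Mean CPM (log axis) of the 395 detected miRNA genes against their rank. Mir205 at rank 28 and Mir203 at rank 44 are the coloured points, with coloured lines (mostly hidden by the points) between their 2 libraries, and both lie far above the dashed median of 122 CPM.

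Per 100 bases of hairpin, scaled to the same sum, Mir205 ranked 23 and Mir203 ranked 39. The sequenced RNA was under 30 bases and the annotated mature strands of both genes have 22 bases. These ranks therefore show only the effect of scaling by hairpin length. The genes whose levels were most like those of Mir205, by the larger of the absolute log2 CPM ratios in the 2 libraries, were Mir744 (0.01), Mir106b (0.12) and Mir487b (0.13). Mir744 stood at 8373 CPM (replicate 1) and 9429 CPM (replicate 2), so its order against Mir205 changed between the libraries. Mir106b belongs to a growth-promoting cluster and Mir487b to the imprinted Dlk1-Dio3 region. Over all detected genes, 24 exceeded Mir205 in both libraries, 364 were below it in both and 6 changed sides. The neighbours in rank from 25 to 30 had CPM ranges that overlapped that of Mir205, and Mir130b at rank 31 was the first below it that did not.

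For Mir203 the most similar levels were those of Mir181c (0.12), Mir296 (0.13) and Mir181d (0.15). Mir181c stood at 5987 CPM (replicate 1) and 6997 CPM (replicate 2), above Mir203 in both, although the ranges overlapped. Likewise 40 genes exceeded Mir203 in both libraries, 348 were below it in both and 6 changed sides. All neighbours in rank from 41 to 47 had ranges that overlapped that of Mir203. Of these, Mir181c and Mir296 were above it in both libraries, and the other 4 changed sides. Likeness over 2 libraries is a statement about level only.

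Mir205 exceeded Mir203 in both libraries, and their CPM ranges did not overlap. The ratio of Mir205 counts to Mir203 counts was 1.478 in replicate 1 (exact interval 1.455 to 1.501) and 1.451 in replicate 2 (1.432 to 1.470), with a mean of 1.46 ± 0.0188 (SD, n = 2). Per base of hairpin the ratio was 1.64 ± 0.0210 (SD, n = 2), although the mature strands of both genes are equally long. The ratio needs no library size. Between the libraries it differed by 0.03 on the log2 scale (Wald 95% interval -0.003 to 0.055), which did not pass a two-sided Fisher's exact test of the counts (p = 0.0784). The genes lie on different chromosomes, and their proportion was close in both pools. How evenly the library preparation captured the 2 sequences was not tested, so the ratio is one of reads.

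Together Mir205 and Mir203 took 1.41% of gene counts in replicate 1 (exact interval 1.40 to 1.42) and 1.58% in replicate 2 (1.57 to 1.59), a mean of 1.495% ± 0.123 (SD, n = 2). The miR-200 family, 5 genes that maintain epithelial identity, took 1.67% in replicate 1 and 2.00% in replicate 2. Mir429 of that family was above Mir205 in both libraries, at 9066 CPM (replicate 1) and 10547 CPM (replicate 2). Mir200c had 4143 CPM and 4924 CPM, and Mir200b had 2373 CPM and 3381 CPM, in replicates 1 and 2. Mir141 and Mir200a averaged 526 ± 119 CPM and 608 ± 125 CPM (SD, n = 2 each). The 2 genes of stratifying epithelium thus fell within the range of the family, above 4 of its 5 genes in both libraries.

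**Figure D2:**
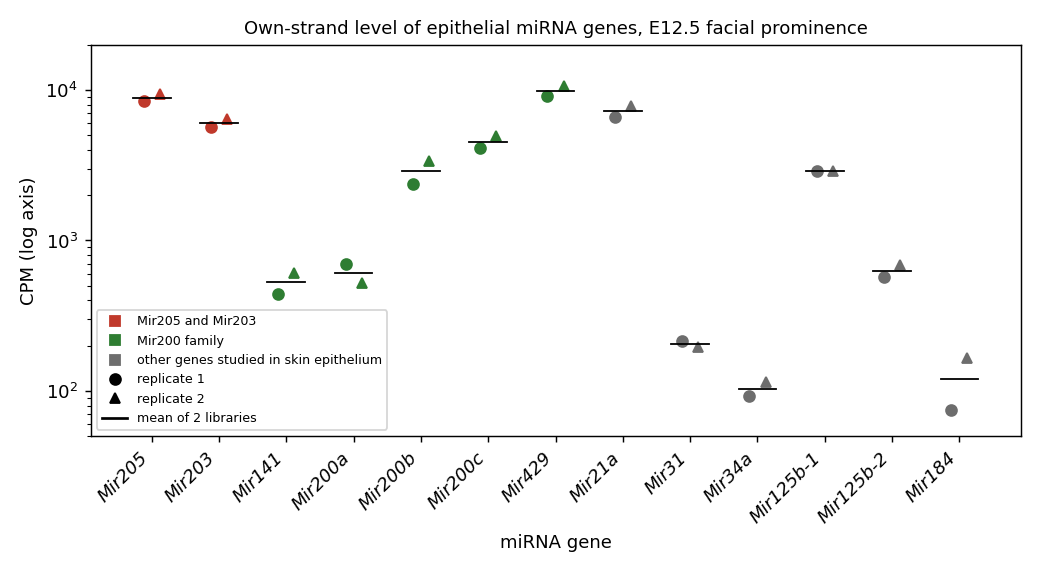
CPM (log axis) of Mir205 and Mir203, of the 5 genes of the miR-200 family and of 6 other genes studied in skin epithelium. Circles are replicate 1, triangles replicate 2 and lines the mean; Mir205 (8883 CPM) and Mir203 (6070 CPM) lie below Mir429 (9806 CPM), with Mir21a (7201 CPM) between them.

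Mir21a, a widely expressed gene, was near Mir203, at 6617 CPM (replicate 1) and 7785 CPM (replicate 2). Other genes studied in skin epithelium were lower. Mir125b-1, known from skin stem cells, averaged 2898 ± 14.6 CPM and its copy Mir125b-2 628 ± 81.9 CPM (SD, n = 2 each), and both share a stretch of sequence with a copy, so their counts are uncertain. Mir31, known from hair follicles, stood at 205 ± 13.98 CPM, Mir34a, a p53 target, at 104 ± 16.2 CPM and Mir184 of cornea and epidermis at 120 ± 63.1 CPM (SD, n = 2 each). All 6 of these genes were detected, with a median of 416 CPM, beside 122 CPM over all detected genes.

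In a bulk tissue, a difference in the number of epithelial cells and a difference in miRNA per cell cannot be told apart. Both members were lower in replicate 1 than in replicate 2 by more than counting error. The log2 ratio of replicate 1 over replicate 2 was -0.15 for Mir205 (exact interval -0.17 to -0.13, exact binomial test with Benjamini-Hochberg adjustment over 395 genes, adjusted p = 6.62e-57). For Mir203 it was -0.18 (-0.20 to -0.16, exact binomial adjusted p = 1.66e-53). The level in replicate 1 was 0.9002 times that in replicate 2 for Mir205, and 0.884 times for Mir203. The test compares these 2 libraries, not conditions.

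Such calls were common. Over all detected genes 51.9% passed this test, and 27.1% passed it as lower in replicate 1, so 2 of 2 is not a result about these genes. A difference of at least 2-fold was called for 4.05% of genes, and as lower in replicate 1 for 1.01%, and for neither member. Of the detected genes, 63.5% had a larger absolute log2 ratio than Mir205 and 59.2% a larger one than Mir203. With edgeR's exact test and the coefficient of variation fixed at 0.2, close to the 0.190 estimated from these libraries, neither member passed (edgeR adjusted p = 1 for each), and 2 of 395 genes did. The value of 0.190 was estimated from these 2 libraries taken as 1 group, so it counts their difference as spread. A test at or near that value therefore cannot decide whether the members differ between the pools. With all reads of a library as its size, the log2 ratios were -0.32 for Mir205 and -0.35 for Mir203. The median of all detected genes then moved to -0.17. On that scaling 43.5% of genes had a larger absolute ratio than Mir205 and 40.5% a larger one than Mir203, so the place of the members in this order depends on the library size used.

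**Figure D3:**
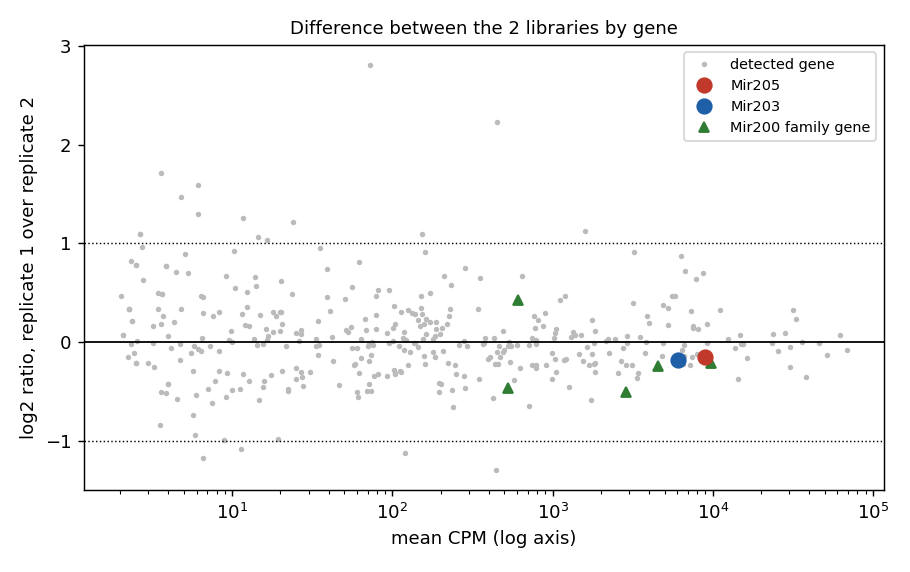
Log2 ratio of replicate 1 over replicate 2 against mean CPM (log axis) for the 395 detected genes. Mir205 (-0.15) and Mir203 (-0.18) lie well inside the dotted lines of 2-fold difference, with 4 of the 5 miR-200 family genes also below 0.

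Of the miR-200 family, 4 of 5 genes were called lower in replicate 1 and 1 higher. Over all detected genes, 27.1% were called lower and 24.8% higher. The family had a median log2 ratio of -0.24, beside 0.0026 over all detected genes, and a shared direction was not tested. The lower genes of the family were Mir200b (-0.51), Mir141 (-0.46), Mir200c (-0.24) and Mir429 (-0.21). Mir200a had the opposite direction (0.43), at 696 CPM (replicate 1) and 519 CPM (replicate 2). Mir205 and Mir203 thus shared their direction with most of the family, at a smaller size than each of the 4 genes.

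The counts of Mir205 plus Mir203 were 0.842 times those of the miR-200 family in replicate 1 (exact interval 0.834 to 0.851) and 0.792 times in replicate 2 (0.785 to 0.799), a mean of 0.817 ± 0.0358 (SD, n = 2). The log2 difference of 0.09 exceeded counting error (two-sided Fisher's exact test, p = 1.26e-19). Mir205 alone was 0.502 and 0.469 times the family, and Mir203 alone 0.340 and 0.323 times, in replicates 1 and 2. Relative to the family, then, both members were slightly higher in replicate 1. The exact test does not cover the spread between pools.

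Markers of some other cell types also had lower sums in replicate 1, and their part in the values of Mir205 and Mir203 was not tested. Their calls cover counting error only and stand beside the 27.1% of all detected genes called lower. Smooth muscle genes, led by Mir143, had 2 of 2 genes called lower in replicate 1 and summed to 1.28% of counts in replicate 1 and 1.66% in replicate 2. Striated muscle genes, led by Mir206, summed to 0.108% and 0.1498%, with both detected genes of 5 measured called lower in replicate 1, although 4 of the 5 share sequence with a copy and Mir133a-2 was at 0 in both libraries. Blood genes, led by Mir223, summed to 0.0521% and 0.0637%, with 1 of 5 called lower, in replicates 1 and 2. With the coefficient of variation fixed at 0.2 only 2 of all 395 genes stayed called.

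As log2 ratios of replicate 1 over replicate 2, the sums of the other 5 cell type lists ran from -0.06 (gut and liver) to 0.09 (sensory). The 3 lists above were further from 0, at -0.38 (smooth muscle), -0.47 (striated muscle) and -0.29 (blood). Also outside that range were the sums of the miR-200 family (-0.26), the other skin epithelium genes (-0.18) and Mir205 with Mir203 (-0.17). In percentage points, the sensory and endothelial sums differed by more than those of striated muscle and blood. The sensory genes led by Mir182 summed to 3.14% in replicate 1 and 2.95% in replicate 2. In the same order, the mesenchyme and cartilage genes led by Mir214 summed to 6.47% and 6.42%, and 3 of these 6 share sequence with a copy. The endothelial genes led by Mir126a summed to 2.93% and 2.75%. Neural genes, led by Mir137, summed to 0.0811% and 0.0796%, with Mir124a-1 and Mir9-2 at 0 in both libraries, where 5 of the 6 measured genes share sequence with a copy. Gut and liver genes, led by Mir192, summed to 0.0152% and 0.0159%, with 0 of 3 detected genes called. Of the 5 gut and liver genes measured, 2 share sequence with a copy. These 5 lists held 3 sensory, 6 mesenchyme and cartilage, 3 endothelial, 2 neural and 3 gut and liver genes that were detected. Of these, 5 were called lower and 5 higher in replicate 1, beside 27.1% lower and 24.8% higher over all detected genes. The calls are not a result about these lists. The mesenchymal share of counts was larger than that of Mir205 and Mir203 in both libraries.

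**Figure D4:**
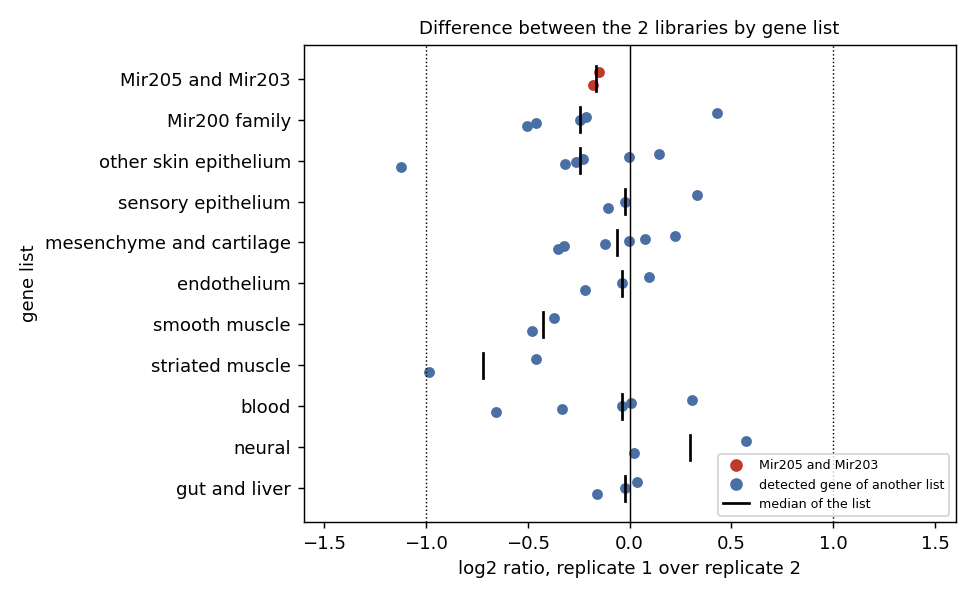
Log2 ratio of replicate 1 over replicate 2 for each detected gene of 11 lists, with the median of each list as a line. The median of Mir205 and Mir203 (-0.16) lies between those of the miR-200 family (-0.24) and of mesenchyme and cartilage (-0.06). The other skin epithelium (-0.25), smooth muscle (-0.42) and striated muscle (-0.72) medians lie further below 0. The sensory, endothelium, blood and gut and liver medians lie closer to 0 than that of mesenchyme and cartilage, and the neural median is above 0 (0.30).

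The 2 genes differed in reads on the opposite strand. Mir205 had 0 reads on the opposite strand in both libraries, which, at the floor of 3 counts, allows a share of up to 0.00757% of its reads in replicate 1 and 0.00540% in replicate 2. Mir203 had 70 such reads in replicate 1 (0.260%, exact interval 0.203 to 0.329) and 82 in replicate 2 (0.214%, 0.170 to 0.265). Opposite-strand reads in both libraries were found for 24 of the 395 detected genes (6.08%). Mir203 ranked 3 among the 395 by the number of such reads, which is not scaled to a gene's abundance. As a share of a gene's reads, 12 of the 24 genes were above Mir203 in both libraries. RefSeq lists the miRNA gene Gm51289 on that strand, at chr12:112130887-112130946, inside the Mir203 hairpin. The tables do not list it. Its mature strands are shown because they would be counted in the opposite-strand column of Mir203.
miR-203b-5p: aGUGGUCCuaaacauuucac
miR-203b-3p: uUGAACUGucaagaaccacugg
Their seeds, in capitals, differ from those of miR-203. Whether the opposite-strand reads came from these strands was not tested, since the tables give no read sequences.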

How the data were processed

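The authors deposited 1 table of raw counts per library, reads per miRNA gene as whole numbers, aligned to mm10 with GENCODE M4 as annotation, per the descriptions deposited with them. Aligner, counter and trimming are not given in the sources used here. The tables have no header. Column 3 was taken as the gene's own strand, since the opposite strand held only 3.24% and 3.29% of gene reads in replicates 1 and 2. Reads on no gene stayed out of the library sizes.

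Symbols and positions (1-based) came from GENCODE M21 on GRCm38, which mm10 denotes, for 1894 of 1973 identifiers. The replicate tables differed far beyond sampling noise (chi-square 73700, 394 degrees of freedom). Library sizes were scaled by TMM in edgeR 4.0.16 (R 4.3.3; DESeq2 1.42.0 for size factors; scipy 1.17.1 for exact tests). 1 library against 1 leaves no residual degrees of freedom for edgeR's quasi-likelihood test or DESeq2's, so the exact binomial test was used. It was checked on simulated counts that held counting error and no spread between pools, so the check does not cover that spread. The test covers counting error only, since it has no term for the spread between pools. No molecular identifiers were used here. Genes named are the members, the 3 nearest in level to each, seed partners, miRNA genes within 100 kb, the miR-200 and skin lists and the highest gene of each other list. Single genes of low counts, Mir130b and the opposite-strand gene were named after values were seen. Mir1a-2, Mir142 and Mir9-1 were not analysed here. The members and lists were chosen with earlier results of these data known.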

Additional observations from a re-analysis of the deposited data

Results flagged for a closer look

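Reads opposite to Mir203 are a signal in a column that the levels above do not use. Mir203 had 70 such reads in replicate 1 and 82 in replicate 2, against the 3 counts that a count of 0 allows, while Mir205 had 0 in both libraries.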

How the results depend on the processing

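Of 59 alternative values, 43 stayed within the spread or on the same side of the threshold. Another 10 moved, 6 were weaker and 0 reversed direction, although levels, ranks and shares have no direction to reverse. With 2 libraries, leaving 1 out returns the value of the other. For levels, ratios and shares that value always lies within the SD, so those alternatives could not have moved. With all reads as the denominator the mean level was 3907 CPM for Mir205 and 2671 CPM for Mir203, and without the 10 most abundant genes it was 15540 and 10619 CPM. Per 100 bases of hairpin, Mir205 stood at 10652 CPM, and the ranks of Mir205 and Mir203 were 23 and 39. The ratio of Mir205 to Mir203 per base of hairpin was 1.64. Hairpin length is not the length of the sequenced RNA, so these values show only the effect of that scaling. Among genes that share no 20-base stretch Mir205 ranked 25. In edgeR's exact test, with the coefficient of variation fixed at 0.2, fixed at 0.4 or estimated, the log2 ratios of -0.15 and -0.18 for Mir205 and Mir203 no longer passed (edgeR adjusted p = 1 in each case), and at 0.2 only 2 genes of 395 passed in place of 205. The estimated coefficient came from the same 2 libraries taken as 1 group, so it already counts their difference as spread. With all reads as library size the log2 ratios of Mir205 and Mir203 were -0.32 and -0.35. Leaving out replicate 1 or 2 gave 8400 to 9365 CPM for Mir205, 5685 to 6454 CPM for Mir203, ranks 26 to 30 and 41 to 47, a ratio of 1.451 to 1.478, a combined share of 1.41 to 1.58% and a ratio to the miR-200 family of 0.792 to 0.842. No paired analysis was possible because the labels give 1 group. With 2 libraries the SDs themselves are imprecise.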
